A study of Mus musculus with 2 samples.

Results

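The integrated stress response is the program by which cells slow general protein synthesis and switch on a set of repair and supply genes when amino acids run short, proteins misfold in the endoplasmic reticulum, mitochondria fail or viruses enter. Its sensors are kinases that phosphorylate the initiation factor eIF2. Most mRNAs are then translated less, while the mRNA of ATF4, a bZIP transcription factor, is translated more because of upstream open reading frames in its leader, so that ATF4 mRNA is only part of the control of ATF4. ATF4 binds DNA together with C/EBP proteins and other bZIP partners and activates further regulators, and several of these act back on the response. In tumor cells the program is known for amino acid supply, redox balance and survival under stress.

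The 10 genes described here are Atf4 and regulators that it induces or that act with it: the transcription factors Atf3, Atf5 and Ddit3, the chromatin-associated stress protein Nupr1, the pseudokinase Trib3, the glutathione-degrading enzyme Chac1, the mTORC1 inhibitors Ddit4 and Sesn2, and the ribosome rescue factor Gtpbp2. They were taken by symbol from the probe annotation of the array, and all 10 were found among the 19505 genes measured. The set was chosen by its known role together with the measured differences between these same arrays, several of its genes having been seen to be higher, so that the direction of the genes given below is a description and supports nothing.

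RNA came from LLC cells, a mouse Lewis lung carcinoma line labelled as C57BL/6, in 2 groups with 1 Clariom S array each. The shPDLIM2 line was infected with virus carrying an shRNA against PDLIM2, and the shEmpty line was infected with virus carrying the shEmpty shRNA. Both were stable lines selected with puromycin, and the sources used here do not give whether either was derived from a single cell. With 1 array per group no difference has a replicate error, and no p-value was computed. The effects of the knockdown, of the shRNA beyond its target, of the stable line, of the culture and of the array cannot be told apart. Every difference below is the log2 signal of the shPDLIM2 array minus that of the shEmpty array.

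Pdlim2, the targeted gene, had a log2 signal of 10.04 on the shEmpty array and 8.33 on the shPDLIM2 array. To judge faint signals, the 95th percentile of 1437 odorant, vomeronasal and taste receptor genes served as the background level, at 5.12 on the shEmpty and 5.24 on the shPDLIM2 array. The median difference of all genes was 0.01 on the log2 scale, and the central 95% of the differences ran from -0.94 to 0.92. The spread of the difference of a single probe set, from 48 genes with 2 probe sets, was 0.35 on the log2 scale. It compares probe sets of the same gene on the same arrays, and so does not measure variation between cultures. Of the epithelial markers fixed for the carcinoma label, Krt18 and Krt8 were above background on both arrays, Krt19 on the shEmpty array alone, and Epcam, Cdh1, Cldn4 and Cldn7 on neither. The measured signal of all 7 was lower in shPDLIM2 cells. Lower were 49.0% of all genes and 54.7% of those above background on both arrays. The summed linear signal of the 7 markers was 4960 on the shEmpty and 2680 on the shPDLIM2 array. Most of this sum was the signal of Krt18, at 12.2 and 11.29 on the log2 scale. Markers of lymphocytes and of endothelium were above background on both arrays in 0 of 7 and 0 of 6 genes, and macrophage markers in 1 of 7 (Cd14, with log2 signals of 6.57 and 6.66). The summed linear signal of the macrophage markers was 221 on the shEmpty and 261 on the shPDLIM2 array, that of the lymphocyte markers 115 and 139, and that of the endothelial markers 97.3 and 125. The endothelial marker Pecam1 had 3.55 and 5.33, the second just above background. Also above background on the shPDLIM2 array alone were the macrophage marker Adgre1 (4.93 and 5.76) and the lymphocyte marker Cd4 (4.84 and 5.38). The fibroblast markers Dcn (5.06 and 5.82) and Pdgfrb (5.01 and 5.55) were so too. Of the fibroblast markers, which mesenchymal tumor cells also express, 2 of 7 (Vim and Col3a1) were above background on both arrays. Their summed linear signal of 775000 and 723000 was almost wholly that of Vim, with log2 signals of 19.56 and 19.46. The part of these markers in the values of the stress genes was not tested.

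The promoters of these genes are shown first, because ATF4 with a C/EBP partner is known to bind a composite motif, TGATGNAA, and because genes with and without it are compared below. RefSeq windows of build GRCm38.p6, from 250 bases before to 50 bases after an annotated start, were found for all 10 genes, with 2 windows for Atf5. The motif was searched on both strands. It lay in the window of 4 of the 10 genes, Chac1, Nupr1, Atf3 and Trib3, whereas 4.51% of all 27025 genes with a window and 3.95% of the genes on the array held it in any of theirs. Chac1, Nupr1 and Atf3 held the same 8 letters, TTGCATCA, which is the strict form TGATGCAA read on the other strand and was found in 1.03% of all genes with a window; this strict form was added after the matches were seen. The 250 bases before the start are given for these 3 genes, and for Gtpbp2, which had the largest difference of the 10 genes and no match. For Trib3, whose match lies after the start, 30 bases are given. All are written 5′ to 3′ on the strand of the gene, with the match in capitals.
Chac1, chr2:119350992-119351241, plus strand: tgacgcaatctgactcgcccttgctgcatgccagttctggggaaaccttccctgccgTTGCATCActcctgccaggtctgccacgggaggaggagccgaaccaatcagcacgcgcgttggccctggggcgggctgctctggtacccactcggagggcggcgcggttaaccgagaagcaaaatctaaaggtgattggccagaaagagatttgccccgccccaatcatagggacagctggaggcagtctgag
Nupr1, chr7:126625471-126625720, minus strand: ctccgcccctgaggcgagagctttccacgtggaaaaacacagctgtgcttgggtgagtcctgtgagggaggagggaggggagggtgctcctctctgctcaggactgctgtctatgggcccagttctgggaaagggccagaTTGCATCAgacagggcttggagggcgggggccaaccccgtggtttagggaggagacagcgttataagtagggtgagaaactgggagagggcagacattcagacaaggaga
Atf3, chr1:191183334-191183583, minus strand: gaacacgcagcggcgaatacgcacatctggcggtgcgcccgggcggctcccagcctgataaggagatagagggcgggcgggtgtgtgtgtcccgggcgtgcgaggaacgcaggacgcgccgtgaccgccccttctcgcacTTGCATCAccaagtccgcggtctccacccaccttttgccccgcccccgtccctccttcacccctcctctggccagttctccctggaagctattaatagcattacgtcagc
Gtpbp2, chr17:46160782-46161031, plus strand: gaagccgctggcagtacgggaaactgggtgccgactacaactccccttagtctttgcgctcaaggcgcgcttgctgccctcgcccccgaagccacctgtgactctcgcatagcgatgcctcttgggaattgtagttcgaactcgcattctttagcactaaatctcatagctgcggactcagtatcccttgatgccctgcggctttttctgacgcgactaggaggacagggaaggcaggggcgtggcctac
Trib3, chr2:152344028-152344057, minus strand: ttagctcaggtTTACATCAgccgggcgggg

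Counted from the start, the match lay at positions -110 to -103 in both Nupr1 and Atf3, at -193 to -186 in Chac1 and at 15 to 22 in Trib3. The cyclic AMP response element TGACGTCA, a motif of other ATF and CREB dimers, was in 0 of the 10 genes and in 2.03% of all genes with a window. The CCAAT box, a common promoter element bound by NF-Y, was in 7 of the 10 genes (Atf3, Atf4, Atf5, Chac1, Ddit3, Ddit4 and Sesn2) and in 41.1% of all. The GC content of the 250 bases before the start ran from 56.0% to 70.0% over the 11 windows, with a median of 60.8%, against 52.4% over all windows. A match is a description of the letters, and binding was not measured.

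**Figure D1:**
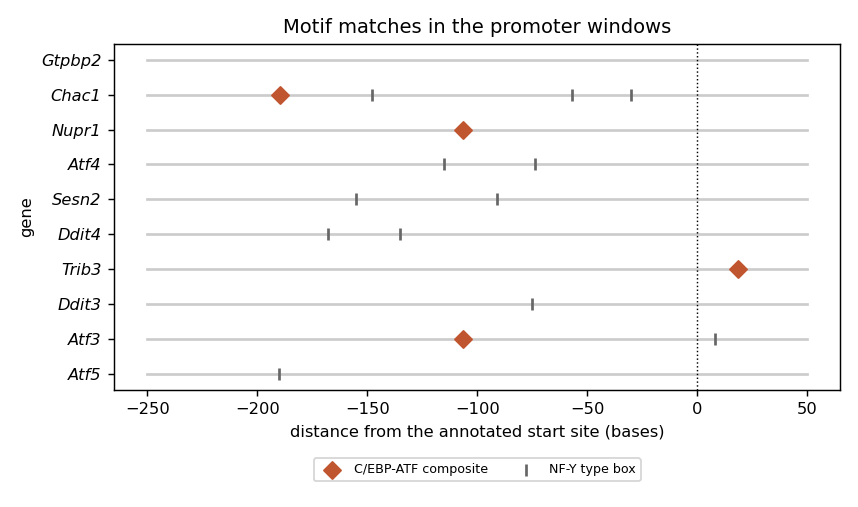
Position of motif matches in the promoter windows of the 10 genes, in bases from the annotated start site (dotted line). Diamonds are the C/EBP-ATF composite motif and ticks the NF-Y type box; both windows of Atf5 share a row, and the composite motif lies in the rows of Chac1, Nupr1, Atf3 and Trib3.

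Of the 10 genes, 8 had a higher signal in shPDLIM2 than in shEmpty LLC cells, and 2 were lower. Among all genes 50.0% were higher and 49.0% lower, and among genes above background on both arrays 44.4% were higher and 54.7% lower. A difference of at least 1.5-fold was used as a call in the absence of a test. Of the 10 genes, 4 were at least 1.5-fold higher and 0 at least 1.5-fold lower, where 9.78% and 10.0% of all genes were. Of the 9 genes above background on both arrays, 3 were at least 1.5-fold higher, against 7.69% of all such genes. Of all such genes 13.5% were at least 1.5-fold lower. At least 2-fold higher were Gtpbp2 and, by its measured difference, Chac1, against 1.74% of all genes and 1.11% of those above background on both arrays. At least 2-fold lower were 0 of the 10 genes, against 2.01% and 2.77%. Since the genes were chosen with these values known, nothing is read from these counts. The median difference of the 10 genes was 0.37. Of these genes, 9 were above background on both arrays, and Chac1 was so on the shPDLIM2 array alone.

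**Figure D2:**
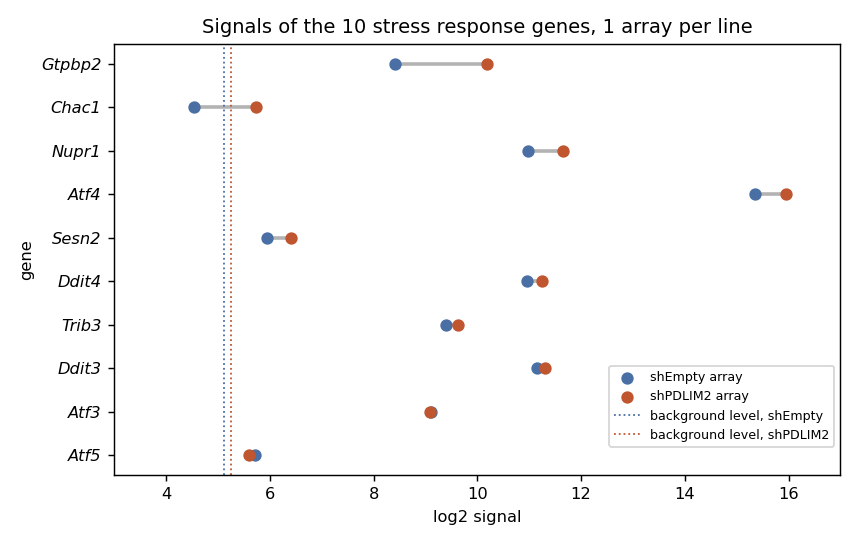
Log2 signal of the 10 genes on the shEmpty array (blue) and the shPDLIM2 array (orange), 1 array per line, joined by a line for each gene and ordered by the difference. The shift is widest for Gtpbp2, from 8.42 to 10.19, and the points of Atf3 and Atf5 lie close together or in reverse order; the dotted lines are the background levels of each array.

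Atf4, the central transcription factor of the response, had a log2 signal of 15.35 in shEmpty cells and 15.95 in shPDLIM2 cells. The shPDLIM2 array was thus 0.60 higher on the log2 scale, or 1.52-fold, which is rank 1771 of 19505 genes ordered from the most positive difference. This size is inside the central 95% of all genes. Under the other scalings of the arrays the difference of Atf4 ran from 0.54 to 0.70, and the lowest, with each array centred on its median, is below 1.5-fold. Over the 2 arrays, the genes with signals most like those of Atf4 were Odc1, which encodes ornithine decarboxylase of polyamine synthesis (15.50 and 15.93, a distance of 0.15 on the log2 scale), the nucleic acid binding protein gene Cnbp (15.20 and 15.91, distance 0.16) and Taf10, a TFIID subunit (15.42 and 15.81, distance 0.16). With 2 points per gene this likeness is one of level, and since probes differ in brightness it says nothing of transcript amounts.

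Atf5 and Atf3 did not share the difference of Atf4. Atf5, whose mRNA is translated under stress much as that of Atf4 is, was measured at 5.71 (shEmpty) and 5.60 (shPDLIM2), which is -0.11 on the log2 scale. Both signals were near background, and the annotated gene overlaps Nup62 and Il4i1b, so that the signal may not be of Atf5 alone. Atf3, a stress-inducible repressor and activator that also responds to p53 and to growth factors, had signals of 9.10 and 9.08. Its difference of -0.02 had the other sign with quantile-normalized arrays (0.07) and once a lowess trend had been taken out (0.06), so that it has no settled direction.

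Ddit3 encodes CHOP, which is induced by ATF4, pairs with C/EBP proteins and is tied to cell death under long stress. It was the only one of the 10 genes with 2 probe sets, and these went opposite ways. The brighter set gave 12.62 for shEmpty and 13.04 for shPDLIM2, which is 0.42 apart. The second set, annotated to a second RefSeq transcript of Ddit3 and called unmapped in its platform identifier, had 9.68 and 9.55, a difference of -0.13. Their mean of 0.15 (11.15 and 11.30) was smaller than the spread of a single probe set, 0.35. The annotated Ddit3 also overlaps its neighbours Mbd6 and Mars1, whose own differences were -0.17 and 0.23.

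Nupr1, a small stress protein that is induced with ATF4 and works beside it in chromatin, gave 10.98 on the shEmpty and 11.66 on the shPDLIM2 array. The difference of 0.68, or 1.60-fold higher, was at rank 1297. The annotated gene lies inside the long noncoding RNA gene Gm39087, which was not measured by name. Nupr1 and Atf3, which share the composite motif at the same distance from the start, had differences of 0.68 and -0.02. The part of the motif in these was not tested.

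Gtpbp2, a GTPase that works with PELO to free stalled ribosomes and whose loss in mouse neurons is known to raise the integrated stress response, had the largest difference of the 10 genes. The shEmpty array gave 8.42 and the shPDLIM2 array 10.19, both above background. The difference of 1.77, or 3.41-fold higher, was at rank 11 of 19505 genes and beyond the central 95% of all genes. It ran from 1.71 to 1.86 under the alternatives tried. The promoter window of Gtpbp2 shown above lies inside the annotated span of the gene, at 1 of its starts.

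Chac1, which degrades glutathione to a cyclic product and is induced by ATF4, was at 4.54 on the shEmpty and 5.74 on the shPDLIM2 array. The first is below and the second above the background level, so the fold is a bound, at least 1.54-fold higher, set against the background level of the shEmpty array. The measured difference was 1.20, at rank 129, and receptor genes without expected transcript had a central 95% from -0.79 to 1.01. Because Chac1 passed the background level only on the array where it was high, its difference is no sign for the group. Without Chac1, the median of the other 9 genes was 0.28.

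Trib3, a pseudokinase that binds ATF4 and holds it back, had signals of 9.39 and 9.63, a difference of 0.24. Ddit4 and Sesn2 both restrain mTORC1, the kinase complex of growth, through TSC and through amino acid sensing. Ddit4 was at 10.96 in the shEmpty line and 11.24 in the shPDLIM2 line, 0.28 apart. Sesn2 had 5.94 and 6.40, a difference of 0.46, or 1.38-fold higher. The differences of Trib3 and Ddit4 were below the spread of a single probe set. That of Sesn2 was above this spread but inside the central 95% of all genes. The composite motif lay in the promoter window of Trib3 and not in that of Ddit4, and its part in their differences was not tested.

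**Figure D3:**
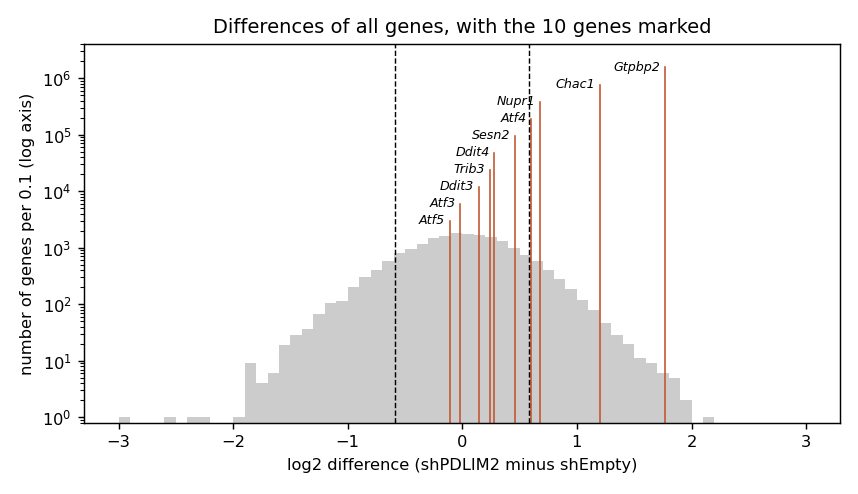
Number of genes by log2 difference, shPDLIM2 minus shEmpty, in steps of 0.1 (log vertical axis), with the 10 genes marked by orange lines whose heights carry no value. The dashed lines are 1.5-fold; Gtpbp2 at 1.77 and Chac1 at 1.20 lie in the right tail, and 6 of the 10 genes lie between the dashed lines.

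Gtpbp2, Sesn2, Chac1, Trib3, Ddit4 and Nupr1 were set beside close relatives on the array. The transcription factors Atf3, Atf4, Atf5 and Ddit3 were not paired in this way. Gtpbp1, the paralog of Gtpbp2 with a like role in ribosome rescue, went the other way, from 10.47 in shEmpty to 9.64 in shPDLIM2 cells, a difference of -0.83 against 1.77 for Gtpbp2. Sesn1, a sestrin better known as a p53 target, had signals of 8.18 and 7.66 (-0.52), while Sesn3 had 5.98 and 6.38 (0.40), close to the 0.46 of Sesn2. Chac2, the constitutive relative of Chac1, was at -0.29. Of the other tribbles, Trib2 was at 0.36, and Trib1 was at 5.21 in shEmpty cells, just above background, and not above it in shPDLIM2 cells (4.72), so that no fold is given. Ddit4l (-0.11) and Nupr1l (-0.19) were not above background on either array. The median of these 8 paralogs was -0.24, and -0.29 where only those above background on both arrays were kept. By measured signal 6 were lower and 2 higher. Among all genes 49.0% were lower, and 54.7% of those above background on both arrays. Of the 6, Ddit4l and Nupr1l were above background on neither array and Trib1 on the shEmpty array alone.

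**Figure D4:**
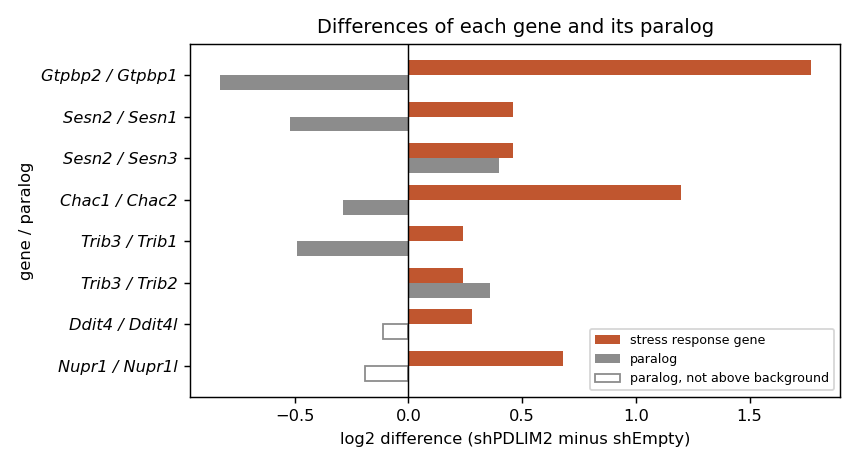
Log2 difference, shPDLIM2 minus shEmpty, of the stress response gene (orange) and of its paralog (grey; open where not above background on either array), with no error bars since there was 1 array per line. The bars of Gtpbp2 and Gtpbp1 point apart, at 1.77 and -0.83, and those of Sesn2 and Sesn3 together, at 0.46 and 0.40.

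Upstream of ATF4, the genes of the eIF2 kinases did not share its higher signal. The heme-regulated kinase Eif2ak1 was at -0.06, the endoplasmic reticulum kinase Eif2ak3 (PERK) at -0.14 and the amino acid sensing kinase Eif2ak4 (GCN2) at -0.20. Eif2ak2 (PKR), which senses double-stranded RNA and is induced by interferon, went from 9.85 (shEmpty) to 9.15 (shPDLIM2), at -0.70 or 1.62-fold lower. Oma1 and Dele1, a mitochondrial protease and the protein it cleaves to switch on Eif2ak1 under mitochondrial stress, were at -0.68 and -0.52, and Impact, which restrains Eif2ak4, was at 0.04. In all 6 of 7 genes were lower, against 49.0% of all genes and 54.7% of those above background on both arrays. At least 1.5-fold lower were 2 of the 7, against 10.0% and 13.5%. The median was -0.20 and ran from -0.27 to -0.12 under the alternatives tried; Gcn1 was not analysed here.

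Genes that remove the phosphate from eIF2 went both ways. Ppp1ca, a catalytic subunit of protein phosphatase 1, was at 11.24 on the shEmpty array against 9.51 on the shPDLIM2 array, or 3.32-fold lower (-1.73), at rank 19490 of 19505. The catalytic subunits Ppp1cb and Ppp1cc were at -0.03 and 0.36. The subunits that direct the phosphatase to eIF2 are Ppp1r15b, which is constitutive and was at 0.13, and Ppp1r15a (GADD34), an ATF4 target that was not above background on either array. Dnajc3, listed with them as a restraint on the eIF2 kinases, was at 0.47. Ppp1ca serves many other phosphatase complexes too.

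Among the subunits of eIF2 and of its exchange factor eIF2B, 4 of 7 genes were higher and 3 lower, with a median of 0.14, which ran from 0.08 to 0.37 under the alternatives tried. Over all genes 50.0% were higher and 49.0% lower, and over those above background on both arrays 44.4% and 54.7%. Eif2b5, the catalytic subunit of eIF2B, was highest at 0.65 (6.43 and 7.08), followed by Eif2b3 at 0.50 and Eif2s3x at 0.39. Eif2s2 was at 0.14, and Eif2b4, Eif2b2 and Eif2b1 were at -0.06, -0.17 and -0.38. Eif2s1, the subunit that is phosphorylated, was not analysed here.

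Of 12 genes for partners of ATF4 and for factors that modify or degrade it, 4 were higher and 8 lower, with a median of -0.08. Lower were 49.0% of all genes and 54.7% of those above background on both arrays. Cebpg, which dimerizes with ATF4 on composite motifs and is itself an ATF4 target, was highest, at 11.01 in shEmpty and 11.48 in shPDLIM2 cells (0.47). Cebpb was at -0.40 and Btrc, a ubiquitin ligase subunit that binds ATF4 for degradation, at -0.41. Cebpa was at 5.15 in shEmpty cells, just above background, and not above it in shPDLIM2 cells (4.42), so that no fold is given. Of 16 other ATF and CREB genes 11 were lower, with a median of -0.17, where 49.0% of all genes were lower. The 2 genes of this list with a signal at least 1.5-fold higher, Batf2 (0.65) and Creb3l4 (0.62), were not above background on either array. Creb3l3 and Creb3l1, above background in shEmpty cells alone, were lower by bounds of at least 1.20-fold for the first and at least 1.16-fold for the second. Batf3 was at 5.17, just above background, and at 4.75, not above it, so that no fold is given. Among genes above background on both arrays the largest difference was that of Creb3l2, which encodes a membrane-bound bZIP factor, at 10.43 and 9.91 (-0.52).

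Downstream, the metabolic targets of ATF4 were mostly higher in shPDLIM2 cells. Of 13 genes for amino acid synthesis and folate metabolism 12 were higher and 3 were at least 1.5-fold higher, with a median of 0.45. The 3 were Mthfd2, a mitochondrial folate enzyme, at 1.02, the alanine aminotransferase Gpt2 at 1.01 and Psph, which makes serine, at 0.87. Pck2, the mitochondrial PEP carboxykinase, followed at 0.56 or 1.47-fold higher. Of 10 amino acid transporter genes 8 were higher, with a median of 0.42 and Slc1a5 at 0.84, Slc7a11 at 0.69, Slc38a2 at 0.64 and Slc7a5 at 0.56. Of 12 genes for aminoacyl-tRNA synthetases and the tRNA exporter Xpot 11 were higher, with a median of 0.25 and Wars at 1.06, Xpot at 0.93, Yars at 0.69 and Tars at 0.39. These lists were written with earlier results of the same arrays known, and their counts are set against 50.0% of all genes higher and 9.78% at least 1.5-fold higher.

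The fourth list of ATF4 targets, secreted factors and others, was mixed, with 10 of 16 genes higher and a median of 0.11. Its largest differences among genes above background were those of Ero1a, an oxidase of disulfide formation, at -0.84, Vldlr, a lipoprotein receptor, at 0.55, Map1lc3b of autophagosomes at -0.51 and Cebpg at 0.47. Fgf21, a hormone known as a marker of the response, was not above background on either array (3.81 and 3.78), and Gdf15 was not analysed here. The composite motif was in the windows of 3 of 11 matched genes for amino acid synthesis and folate (Asns, Got1 and Pck2), 2 of 6 for transporters (Slc1a4 and Slc7a11), 4 of 8 for synthetases (Gars, Iars, Tars and Yars) and 4 of 15 of the others (Fgf21, Herpud1, Jdp2 and Vldlr). Of all genes with a window 4.51% held the motif, and of the genes on the array 3.95%. Over the target lists together, 10 of the 13 genes with the motif were higher. Their median was 0.42, with a range from -0.44 (Slc1a4) to 0.69 (Slc7a11 and Yars). Of the 27 genes whose windows lacked it 21 were higher, with a median of 0.24 and a range from -0.84 (Ero1a) to 1.02 (Mthfd2). Of the 11 genes without a window 10 were higher, with a median of 0.44. Among all genes 50.0% were higher. The difference between genes with and without the motif was not tested.

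**Figure D5:**
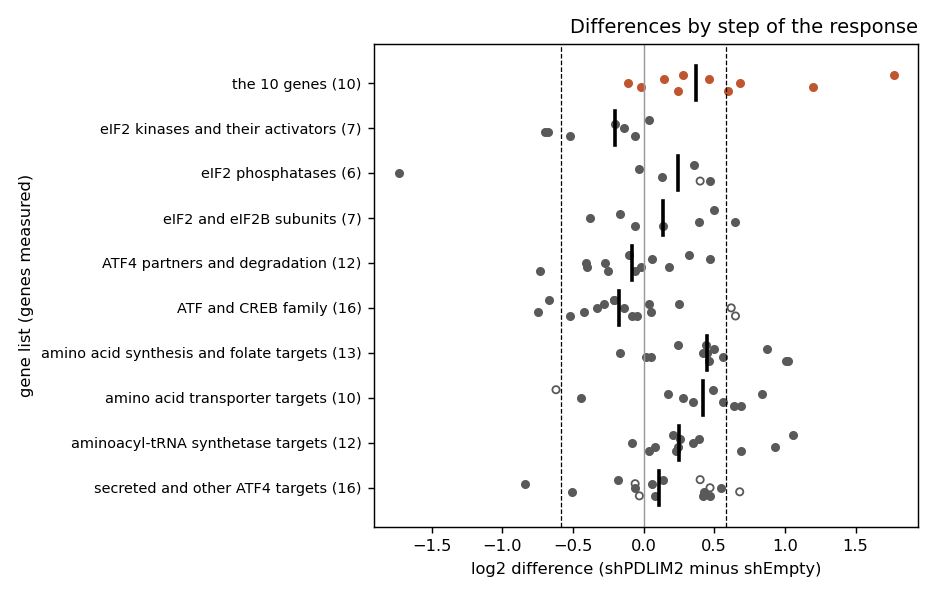
Log2 difference, shPDLIM2 minus shEmpty, of each gene by step of the integrated stress response; every point is a gene, open where not above background on either array, the black bars are medians and the dashed lines 1.5-fold. The median of the 10 genes (orange) is 0.37. That of the kinases and their activators, a list that also holds Impact, which restrains Eif2ak4, is -0.20. Those of the amino acid synthesis and transporter targets are 0.45 and 0.42.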

How the data were processed

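The values used were log2 signals, deposited by the authors for each probe set of the Affymetrix Clariom S mouse array. RMA and Transcriptome Analysis Console are the tools listed in the submitters' processing notes; the sources used here give no versions, no genome build and not whether the 2 arrays were normalized to each other. Of 22206 probe sets, 19572 had 1 gene symbol, 0 had several and 2634 had none in the platform annotation, and probe sets of 1 gene were averaged (55 genes). Older symbols in the gene lists were matched through RefSeq gene identifiers. With 1 array per group no test was run. Levels of different genes are not comparable on an array. The number of arrays limits the precision.

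The 10 genes, the lists and the alternatives were chosen with earlier results of these data known. Named were all 10 genes, their paralogs, the eIF2 kinases, phosphatases and subunits, the 3 genes most like Atf4 (Euclidean distance over 2 arrays, genes above background on both), and up to 4 genes above background with the largest absolute difference in each other list; other genes were named after their values were seen. Alternatives were centring, quantile normalization, removal of a lowess trend (fraction 0.3), filters at the 95th or 99th percentile of receptor genes and the brightest probe set per gene. The scaling steps were tested on simulated data whose differences varied less than those of the arrays. This checks the code and not whether the scaling suits these data. Promoters and motif positions come from RefSeq (GRCm38.p6) and are independent of the array. Python 3.11.15, numpy 2.4.6, pandas 2.3.3, statsmodels 0.14.6 and matplotlib 3.10.9 were used.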

Additional observations from a re-analysis of the deposited data

How the results depend on the processing

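The median difference of the 10 genes ran from 0.28 to 0.44 under the 7 alternatives, against 0.37 as reported. Of the medians of 16 other gene lists, 5 stayed within 1.5 times under every alternative run, those of the amino acid synthesis (0.39 to 0.57), transporter (0.36 to 0.52), tRNA synthetase (0.19 to 0.34), mTORC1 (-0.50 to -0.35) and HIF-1 lists (-0.58 to -0.43). The other 11 moved by more or changed sign: the eIF2 kinases ran from -0.27 to -0.12, the phosphatases from 0.13 to 0.29, eIF2 and eIF2B from 0.08 to 0.37, ATF4 partners from -0.15 to -0.003, the ATF and CREB genes from -0.24 to -0.09, the paralogs from -0.39 to -0.24, the other ATF4 targets from 0.05 to 0.21, the mitochondrial chaperones from -0.24 to -0.05, the endoplasmic reticulum list from -0.04 to 0.14, the p53 targets from -0.07 to 0.03 and the immediate early genes from -0.08 to 0.06. The count of genes at least 2-fold higher was 2 as reported and 1 where only genes above background on both arrays were kept, and also 1 with the 99th percentile of the receptor genes on at least 1 array, as both filters leave out Chac1. The count at least 1.5-fold higher was 4 as reported. It was 3 under each of these filters, and also 3 with centred arrays. No gene called at 1.5-fold changed its direction; the sign of Atf3, which was not called, changed under 2 scalings. Atf4 had 0.54 with centred arrays, which is below 1.5-fold, and Ddit3 had 0.42 from its brighter probe set alone. No paired analysis was possible because each group has 1 array. Signals of Chac1, Atf5 and Sesn2 lie near the background level, which limits their differences.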

Other observations

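Genes of pathways next to the integrated stress response were listed too. For the lists in this paragraph, 50.0% of all genes were higher and 49.0% lower. Among genes above background on both arrays, 44.4% were higher and 54.7% lower. Of 18 genes for chaperones of the endoplasmic reticulum and the other arms of the unfolded protein response, 10 were higher and 8 lower, with a median log2 difference of 0.03, which was -0.04 with centred arrays. Hspa5, the chaperone that reports this stress, had signals of 19.31 and 19.47, and the largest differences were those of Creld2 (0.93), Sdf2l1 (-0.81), Pdia3 (-0.72) and Syvn1 (0.57). Of 12 genes for mitochondrial chaperones and proteases 5 were higher and 7 lower (median -0.17), with the protease genes Spg7 at -1.33, Clpx at -0.78 and Clpp at -0.74 and Lonp1, which is known as an ATF4 target, at 0.51.

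Beside Ddit4 and Sesn2, 14 of 19 genes for mTORC1 and its regulators were lower, with a median of -0.43. For this and the lists below, 49.0% of all genes were lower, and 54.7% of those above background on both arrays. Nprl3 and Nprl2, subunits of the GATOR1 complex that restrains mTORC1, were at -1.04 and -0.87, Tsc1 at -0.81 and Wdr59, of the opposing GATOR2 complex, at -0.66. Ddit4 is also known as a HIF-1 target, and of 14 other HIF-1 targets 12 were lower, with a median of -0.52 and Adm at -1.36, Ldha at -0.95, Kdm3a at -0.82 and Bnip3l at -0.67. Atf3 and Sesn2 are also known as p53 targets, and of 16 other p53 targets 8 were higher and 8 lower (median 0.00), with Btg2 at 1.01, Phlda3 at -0.82, Ccng1 at -0.58 and Sesn1 at -0.52. Of 12 immediate early genes, which respond to handling and to growth factors as Atf3 does, 5 were higher and 7 lower. Their median of -0.02 was 0.06 with quantile-normalized arrays, 0.03 without the lowess trend and 0.04 with the stricter filter, and so has no settled sign. Among them were Dusp1 at 1.01, Myc and Ier3 at 0.59 and -0.59 and Egr1 at 0.44. At least 1.5-fold lower were 5 of the mTORC1 genes and 6 of the HIF-1 targets. Of all genes 10.0% were, and of those above background on both arrays 13.5%.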
